A study of Mus musculus with 2 samples.

Results

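Interferon-stimulated genes were followed in single-cell RNA sequencing (scRNA-seq) of lung organoids grown with PBS (control) or with IL-1β. The 38 genes were chosen by name from the 27998 genes in the count files, and each of the 38 symbols matched 1 row. They comprise 4 transcription factors, 6 genes of viral RNA or DNA sensing, 14 antiviral effectors and the 3 IFITM proteins. The rest are Isg15 and its protease Usp18, 6 interferon-inducible GTPases and 3 others. Alveolar type 2 (AT2) cells, the surfactant-producing stem cells of the alveolus, had been isolated from tamoxifen-treated SPCCreERT2;R26RtdTomato mice, in which the surfactant protein C promoter drives the recombinase and so labels AT2 cells and their progeny. Both cultures were C57BL/6 and shared a co-culture with cultured lung stromal cells, which had been depleted of CD31, EpCAM and CD45 positive cells, so the added IL-1β was the only difference that the labels give. There was 1 library per condition, so differences below compare 2 libraries, have no replicate check and carry no test.

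Interferons are secreted proteins that a cell releases after sensing viral nucleic acid or other danger. Type I and type III interferons signal through receptors bound to the kinases Jak1 and Tyk2 and assemble a complex of STAT proteins with Irf9, which binds the interferon-stimulated response element (ISRE). Type II interferon signals through Jak1 and Jak2 to STAT dimers that bind the gamma-activated sequence (GAS). The genes switched on by these routes block viral entry, translation and replication, and many of them are also transcribed at a low level in uninfected tissue.

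Promoter sequences of the members, searched for the ISRE and the GAS, are shown first. Promoter windows from RefSeq (GRCm38.p6), from 250 bases before to 50 after each transcription start, were found for 30 of the 38 genes. The ISRE was searched as GAAA, any 2 bases and GAAA, and the GAS as TTCNNNGAA, both on either strand. An ISRE match was present for 16 of the 30 genes (53.3%), and for 3.99% of the 27025 genes with a window. A GAS match was present for 9 of the 30 (30.0%) and for 9.55% of all genes with a window. The NF-kB motif, written as GGGA, any base and TTTCC, was searched on either strand because IL-1β acts through NF-kB. It was present for 0 of the 30 genes and for 0.466% of all genes with a window. A motif this rare cannot show a lack among 30 genes, and other forms of it were not searched. The 160 bases before the start are given for 5 members whose levels are described below, read 5′ to 3′ on the gene's own strand, with ISRE matches in capitals for the first 4 and the GAS match in capitals for Irf1.
Ifit1 (chr19:34640729-34640888, plus strand): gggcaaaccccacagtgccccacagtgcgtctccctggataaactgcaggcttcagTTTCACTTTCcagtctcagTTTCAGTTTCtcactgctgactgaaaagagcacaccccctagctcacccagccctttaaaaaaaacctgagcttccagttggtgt
Ifit3 (chr19:34583369-34583528, plus strand): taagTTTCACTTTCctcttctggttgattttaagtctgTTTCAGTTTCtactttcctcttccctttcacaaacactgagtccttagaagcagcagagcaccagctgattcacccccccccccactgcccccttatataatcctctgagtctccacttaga
Isg15 (chr4:156200819-156200978, minus strand): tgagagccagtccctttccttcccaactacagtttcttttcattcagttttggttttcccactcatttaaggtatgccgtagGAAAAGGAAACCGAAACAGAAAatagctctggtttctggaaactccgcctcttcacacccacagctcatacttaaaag
Gbp2 (chr3:142620503-142620662, plus strand): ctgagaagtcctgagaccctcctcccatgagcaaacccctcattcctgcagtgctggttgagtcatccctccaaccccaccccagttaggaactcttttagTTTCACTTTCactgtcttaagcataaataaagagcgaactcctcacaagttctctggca
Irf1 (chr11:53769854-53770013, plus strand): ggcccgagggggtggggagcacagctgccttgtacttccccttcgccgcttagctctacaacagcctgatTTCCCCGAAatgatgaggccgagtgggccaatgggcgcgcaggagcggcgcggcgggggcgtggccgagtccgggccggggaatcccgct
Isg15 held 3 overlapping ISRE matches, Ifit1 and Ifit3 held 2 each and Gbp2 held 1. A match says only that these letters are present in the window.

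Several members lie side by side in the genome (annotated on GRCm38). Ifit2 (chr19:34550694-34576419), Ifit3 (chr19:34583531-34588731) and Ifit1 (chr19:34640871-34650009), which encode proteins that bind foreign RNA, form a cluster. Gbp7 (chr3:142530342-142550149), Gbp3 (chr3:142560026-142573209) and Gbp2 (chr3:142620602-142638008), guanylate-binding proteins that attack intracellular pathogens, form another. Ifitm2 (chr7:140954837-140955987), Ifitm1 (chr7:140967221-140969825) and Ifitm3 (chr7:141009586-141010770), membrane proteins that hinder viral entry, form the third. Reads of near-identical neighbours such as Ifit3 and Ifit3b may be split or lost in counting, so levels of such pairs are uncertain.

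The control library held 2101 cell barcodes and 33965848 unique molecular identifiers (UMIs, counted molecules), and the IL-1β library 3066 barcodes and 41220175 UMIs; 11 barcodes occurred in both. Of the 5142 cells kept, 1016 control and 1886 IL-1β cells were AT2-like, 228 and 374 were AT1-like (the flat gas-exchange cells that AT2 cells give rise to), and 782 and 475 were stromal. The IL-1β library also held 312 cells like damage-associated transient progenitors (DATPs), and the control library held none under the same rule. AT2 markers summed to 127262 and 100308 CPM (UMIs per 1000000 UMIs of a class) in the control and IL-1β AT2-like cells and to 4601 and 6035 in stromal cells. Stromal markers summed to 9503 and 14395 in stromal cells, and AT1 markers to 23608 and 13788 in AT1-like cells against 2237 and 1249 in AT2-like cells. Clusters were nearly all made of 1 library, and the IL-1β AT1-like cluster scored almost as high for DATP markers (0.82) as for AT1 markers (0.84), so the AT1-like comparison rests on cells that may differ in more than treatment. Levels are in CPM, and a gene is called higher or lower when its ratio passed 2-fold and the exact 95% interval of the ratio lay apart from 1. These intervals cover counting error only. A ratio was read for genes with at least 20 UMIs over both libraries.

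In stromal cells, the interferon-stimulated genes were lower in the IL-1β library as a group. Of 37 members with enough UMIs, 25 were called lower and 0 higher, against 12.5% of all 12803 genes called lower and 5.02% called higher. The interval of the ratio lay below 1 for 33 members and above 1 for 1, against 48.8% and 12.1% of all genes. The median log2 ratio was -1.35 over the members and -0.33 over all genes. With ratios taken relative to that median over all genes, 19 members were still lower (51.4%, against 7.43% of all genes). Oas1a, an RNA-activated enzyme, had only 5 and 2 UMIs in stromal cells and was not compared.

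Of 13 antiviral effectors compared in stromal cells, 10 were lower and all 13 had intervals below 1. Ifit1 stood at 99.8 CPM in control and 18.1 in IL-1β stromal cells, a ratio of 0.181 (0.154 to 0.213), and was found in 34.5% of control and 6.74% of IL-1β cells. Ifit3 stood at 95.2 and 18.3 (ratio 0.192). Ifit2, with 111 and 9 UMIs, had a ratio of 0.113 (0.0506 to 0.223). The whole Ifit cluster was thus lower, and its intervals were far from 1. Rtp4, a chaperone with antiviral activity, was at 21.3 and 4.12 (0.194), Oasl2, an oligoadenylate synthetase relative, at 28.6 and 6.45 (0.225), and Ifi44 at 17.2 and 4.65 (0.270). Cmpk2, a nucleotide kinase transcribed beside Rsad2, had a ratio of 0.254, Oasl1 one of 0.424 and Ifi35 one of 0.453. Rsad2, the viperin enzyme, was at 13.7 and 2.01 (0.147), but 2 of the 782 control cells held 87 and 63 of its 181 UMIs, and without the 1% of cells highest for the members the ratio was 0.757 (0.376 to 1.47). The remaining effectors were lower by less than 2-fold: Samd9l, a translation inhibitor, had a ratio of 0.559, the exonuclease Isg20 0.641 and the virion tether Bst2 0.773.

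Isg15, a ubiquitin-like protein that is joined to many proteins during the response, was at 146 CPM (1927 UMIs) in control and 25.3 (239 UMIs) in IL-1β stromal cells, a ratio of 0.174 (0.151 to 0.199). Usp18, which removes Isg15 and blocks the type I receptor, was at 18.7 and 4.65 (0.248). All 6 GTPases were lower, with ratios from 0.143 to 0.332. Iigp1, which disrupts parasite vacuoles, was at 168 and 37.1 (0.222, 0.197 to 0.248) and occurred in 69.2% of control and 30.1% of IL-1β cells. Gbp2 was at 33.5 and 8.14 (0.243), Gbp3 at 29.5 and 4.23 (0.143) and Gbp7 at 16.2 and 5.39 (0.332). Irgm1, a regulator of the other immunity-related GTPases, was at 33.5 and 5.50 (0.164), and Igtp at 14.4 and 4.76 (0.330). Both the guanylate-binding proteins and the immunity-related GTPases were therefore lower.

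All 4 transcription factors were lower in IL-1β stromal cells. Irf7, which drives interferon production, had a ratio of 0.317 (0.242 to 0.412), Irf9 0.393, Irf1 0.475 and Stat2, the partner of Irf9, 0.489. Among the sensing genes, Zbp1, a sensor of Z-form nucleic acid, was at 22.6 and 9.41 (0.417). Trim25, which activates RIG-I, was at 62.6 and 28.6 (0.456). The RNA helicases Ifih1 (0.522), Ddx58 (0.551) and Dhx58 (0.614) were lower by less than 2-fold. Tmem173, the STING adaptor of DNA sensing, had a ratio of 0.861 (0.653 to 1.13), which turned to 1.08 relative to the median of all genes. Xaf1, a pro-apoptotic protein, was at 37.9 and 8.88 (0.235), while Ifi27 (0.680) and Parp14 (0.763) did not pass 2-fold.

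The IFITM genes were among the members that did not pass 2-fold in stromal cells. The ratio of Ifitm3 was close to those of Bst2 (0.773) and Parp14 (0.763), and Tmem173 was at 0.861. Ifitm3 was at 2893 CPM in control and 2239 in IL-1β stromal cells, a ratio of 0.774 (0.761 to 0.787). Ifitm2 was at 1459 and 1537 (1.05) and Ifitm1 at 108 and 116 (1.07). Their levels in AT2-like cells were at most 351 in either library, and stromal cells carried most of the IFITM molecules of the cultures. Ifitm3 was seen in 99.6% of stromal cells in both libraries.

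**Figure D1:**
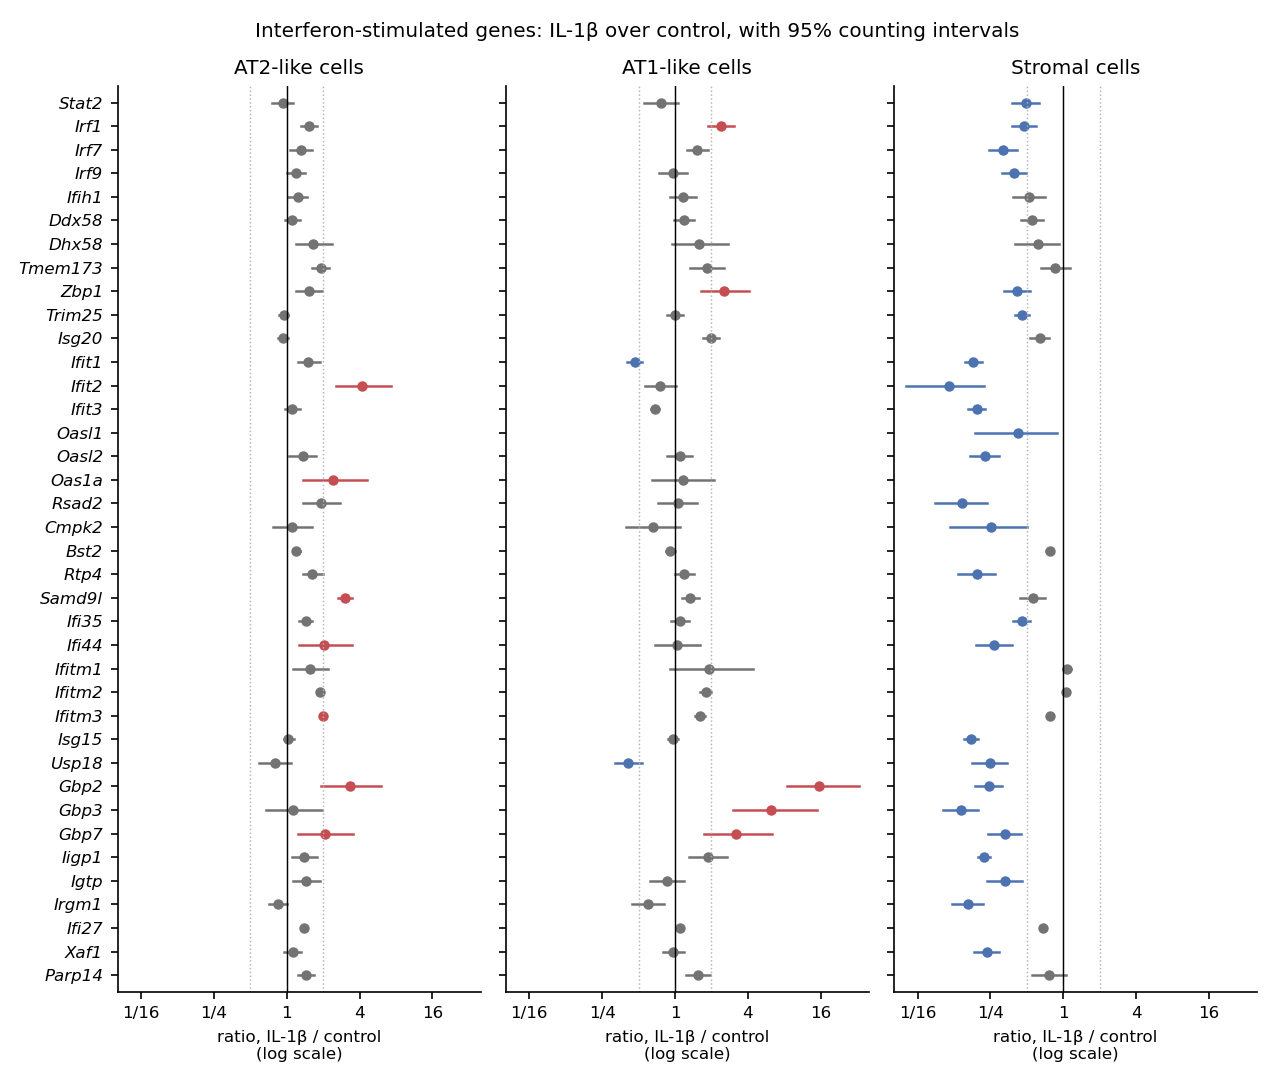
Ratio of IL-1β to control level (x axis, log scale) for each interferon-stimulated gene (y axis) in AT2-like, AT1-like and stromal cells, 1 library per condition; bars are exact 95% counting intervals, dotted lines mark 2-fold, and red and blue mark genes called higher and lower. In stromal cells 25 genes lie below 0.5, while AT2-like and AT1-like cells hold 7 and 5 genes above 2.

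The lower level was seen in both stromal clusters that held at least 20 IL-1β cells. Another 19 IL-1β cells lay in a cluster with 111 control cells and 3 in one with 580, and these were not compared by cluster. The 3 control clusters and 2 IL-1β clusters were compared by level: for 28 of 37 members both IL-1β clusters lay below all control clusters (75.7%), against 29.9% of all genes. Isg15 was at 112, 145 and 175 in the control clusters and at 15.7 and 32.9 in the IL-1β clusters. Iigp1 was at 63.5, 114 and 206 in control and at 29.2 and 45.3 in IL-1β clusters. The control clusters differed among themselves as well, since Ifit1 was highest (179) in the cluster led by the contractile genes Acta2 and Tagln, and Iigp1 was highest in the largest cluster. The members outside this pattern were Dhx58, Tmem173, Oasl1, Rsad2, Cmpk2, Bst2 and the 3 IFITM genes. The median cell of the 2 IL-1β clusters held 9292 UMIs (11 control cells of that cluster included) and 29474 UMIs. These clusters also differed in their leading genes, and the part of depth was not tested by cluster. Fewer expressing cells and less RNA per cell cannot be told apart in such sums.

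Other cells were looked for among the stromal cells. Summed over 8 macrophage markers, the level was 28.2 in control and 0.635 in IL-1β stromal cells, where 6 of the 8 markers were at 0. Summed over 4 endothelial markers, it was 2.57 in control and 25.4 in IL-1β stromal cells, and the part of such cells was not tested. Without cells holding any macrophage marker UMI, which left 714 control and 469 IL-1β cells, 25 members were lower and 0 higher (12.3% and 5.27% of all genes). Surfactant and lysozyme transcripts reached 3.03 to 3.74% of their AT2-like level in control and 5.61 to 6.09% in IL-1β stromal cells, a measure of free RNA, and no member was that low relative to AT2-like cells.

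AT2-like cells held few changes of 2-fold. Of 37 members, 7 were called higher (18.9%, against 8.30% of all 12699 genes) and 0 lower (against 4.73%). The interval lay above 1 for 25 members and below 1 for 1, Irgm1, against 33.7% and 21.5% of all genes, and the median log2 ratio was 0.51 against 0.09 over all genes. Relative to that median, 4 members were higher, against 7.40% of all genes. Oasl1, with 3 and 13 UMIs, was not compared.

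Samd9l had the narrowest interval among the higher members of AT2-like cells other than Ifitm3. It was at 19.6 in control and 59.1 in IL-1β cells, a ratio of 3.02 (2.66 to 3.43), and was found in 23.7% and 47.0% of cells. All 3 IFITM genes had intervals above 1: Ifitm3 was at 163 and 328 (2.00, 1.91 to 2.10), Ifitm2 at 187 and 351 (1.87) and Ifitm1 at 3.68 and 5.71 (1.55). Tmem173 had 224 and 642 UMIs (ratio 1.90, 1.63 to 2.22). These genes were spread over many cells. Gbp2 was at 1.07 and 3.54 (3.31), Oas1a at 1.00 and 2.43 (2.43) and Gbp7 at 1.40 and 2.88 (2.05), all from under 100 UMIs in either library. Ifi44 had a ratio of 2.04 (1.26 to 3.43).

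Most of the remaining members differed by less than 2-fold in AT2-like cells. Intervals above 1 were found for Dhx58 (1.66), Irf1 (1.53), Zbp1 (1.52), Igtp (1.44), Ifi35 (1.43), Parp14 (1.43), Ifi27 (1.40), Iigp1 (1.39), Oasl2 (1.35), Irf7 (1.30), Ifih1 (1.23) and Rtp4 (1.63), and for Bst2 (1.14 to 1.28). For well-known markers of the response the interval held 1: Isg15 was at 46.6 and 48.2 (1.03, 0.939 to 1.14), Ifit3 had 336 and 565 UMIs (1.11, 0.970 to 1.28) and Usp18 at 5.55 and 4.42 (0.797, 0.590 to 1.08). Intervals that held 1 were also found for Xaf1 (1.12), Ddx58 (1.11), Cmpk2 (1.11), Gbp3 (1.13), Trim25 (0.940), Isg20 (0.935) and Stat2 (0.924), and Irf9 (1.19) lay at the edge. The control AT2-like cells included a cluster of 127 cells that scored 0.72 for AT2, 0.58 for AT1 and 0.60 for DATP markers. An IL-1β AT2-like cluster of 508 cells scored 0.72, 0.36 and 0.60, and the IL-1β DATP-like cells were a class apart. The part of these contents in the ratios was not tested.

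A single IL-1β cell carried much of the Ifit and Rsad2 signal of AT2-like cells. Ifnb1, which encodes interferon beta, had 6 UMIs in the IL-1β library and 0 in the control library, and all 6 were in 1 AT2-like cell with 14108 UMIs and 1019 Sftpc UMIs. That cell held UMIs of 32 members, 536 in all or 37993 CPM, where the median IL-1β AT2-like cell was at 1445. It alone held 114 of the 297 Ifit1 UMIs of the 1886 cells, 63 of the 114 Ifit2 UMIs, 66 of the 127 Rsad2 UMIs and 130 of the 189 UMIs of the interferon-inducible chemokine Cxcl10. Without it the ratios were 0.932 (0.740 to 1.18) for Ifit1 in place of 1.51, 0.918 (0.613 to 1.38) for Rsad2 in place of 1.91, and 1.88 (1.08 to 3.41) for Ifit2 in place of 4.19. Ifi44 (1.96), Gbp7 (1.89) and Ifitm3 (2.00 after rounding up) then missed 2-fold, and 3 members were higher: Samd9l (2.64 to 3.41), Gbp2 (2.94) and Oas1a (2.43). That is 8.11% of the members, against 8.26% of all genes, so without this cell the share past 2-fold was at the background. The median log2 ratio was then 0.38 over the members, against 0.09 over all genes. A further IL-1β AT2-like cell with 6330 UMIs and no Ifnb1 UMI reached 39810 CPM, with 50 Ifit3 and 43 Isg15 UMIs. The next highest cell was at 14110. Without the 1% of cells highest for the members in each library, Ifit2 had a ratio of 0.972 and Ifit1 one of 0.624, while Samd9l stayed at 3.10.

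**Figure D2:**
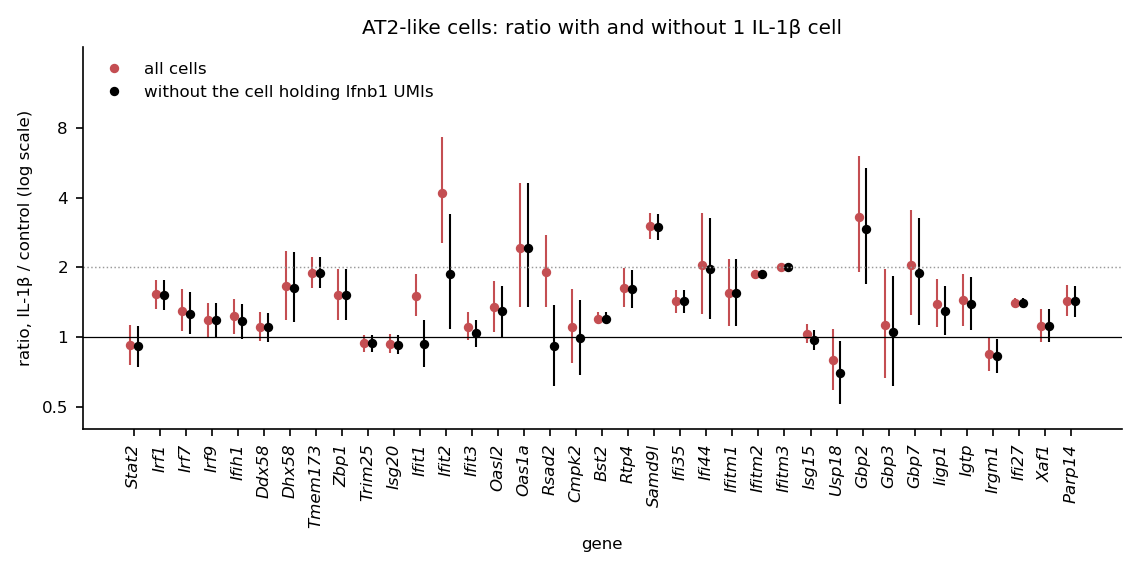
Ratio of IL-1β to control level in AT2-like cells (y axis, log scale) for each gene compared (x axis), with exact 95% counting intervals, in all cells (red) and without the 1 IL-1β cell that held Ifnb1 UMIs (black). Ifit1, Ifit2 and Rsad2 move from 1.51, 4.19 and 1.91 to 0.932, 1.88 and 0.918, and Samd9l stays near 3.

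AT1-like cells held calls in both directions. The higher share was above that of all genes, and the lower share was near it. Of 37 members, 5 were called higher (against 5.56% of all 10764 genes) and 2 lower (against 4.45%), or 13.5% and 5.41% of the members. The interval lay above 1 for 14 members (17.4% of all genes) and below 1 for 5 (19.5% of all genes). The median log2 ratio was 0.21, against -0.01 over all genes. Oasl1 again had too few UMIs.

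The guanylate-binding proteins were the members most different in AT1-like cells. Gbp2 was at 3.05 (10 UMIs) in control and 47.7 (237 UMIs) in IL-1β cells, a ratio of 15.6 (8.36 to 33.0), and was found in 3.07% and 28.9% of cells. Gbp3 had 8 and 76 UMIs (a ratio of 6.27) and Gbp7 at 3.97 and 12.7 (3.20, 1.74 to 6.34). These 3 neighbours were higher together, and the Gbp2 UMIs were spread over 108 cells, of which the highest held 17. Irf1 was at 27.5 and 65.5 (2.38, 1.88 to 3.05) and Zbp1 at 7.94 and 20.1 (2.54, 1.64 to 4.07). Isg20 (1.97), Iigp1 (1.86), Tmem173 (1.83), Ifitm2 (1.79), Ifitm3 (1.60), Parp14 (1.55), Irf7 (1.53), Samd9l (1.34) and Ifi27 (1.09) had intervals above 1 without passing 2-fold.

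Ifit1 and Usp18 were called lower in IL-1β AT1-like cells, 5.41% of the members against 4.45% of all genes. Ifit1 was at 141 in control and 65.9 in IL-1β cells, a ratio of 0.466 (0.403 to 0.538), and Usp18 at 50.4 and 20.7 (0.412, 0.319 to 0.530). Ifit3, at 486 and 332, had a ratio of 0.683 (0.637 to 0.732), and Irgm1 one of 0.603 (0.444 to 0.818). Bst2 was at 327 and 299.8 (0.917). The call for Ifit1 and Usp18 depended on which cells were named AT1-like. At a clustering resolution of 2.0, with 268 control and 301 IL-1β cells, neither passed 2-fold. There 7 members were higher, Gbp2 among them (18.9%, against 5.04% of all genes). The members whose intervals held 1 were Isg15 (0.962), Irf9 (0.960), Stat2 (0.763), Ifih1 (1.16), Ddx58 (1.19), Dhx58 (1.59), Trim25 (1.00), Ifit2 (0.756), Oasl2 (1.09), Oas1a (1.16), Rsad2 (1.05), Cmpk2 (0.660), Rtp4 (1.19), Ifi35 (1.10), Ifi44 (1.04), Ifitm1 (1.91), Igtp (0.855) and Xaf1 (0.968).

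Across the 3 cell types the same gene often pointed in different directions. The interval lay above 1 in AT2-like and below 1 in stromal cells for 20 of the 36 members compared in both (55.6%, against 13.7% of all genes), and below 1 in both for 1 (14.5% of all genes). It lay above 1 in AT1-like and below 1 in stromal cells for 11 of 36 (30.6%, against 6.39% of all genes), and below 1 in both for 5 (13.9%, against 13.3%). Ifit1 and Rsad2 were among the 20 members, but their AT2-like intervals held 1 without the IL-1β cell holding Ifnb1 UMIs. The count of 20 was not repeated without that cell. Gbp2 showed the widest spread, with ratios of 15.6 in AT1-like, 3.31 in AT2-like and 0.243 in stromal cells. These cell types share 2 libraries, and the differences between them were not tested.

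Within the control library, AT1-like cells held more of these transcripts than AT2-like cells. Of 37 members, 26 were more than 2-fold higher in AT1-like cells and 0 were lower (70.3%, against 17.6% of all genes higher and 6.82% lower). Ifit3 was at 486 in AT1-like and 22.5 in AT2-like cells, and was found in 89.5% and 18.5% of them. Ifit1 was at 141 and 8.69, Isg15 at 198 and 46.6, Usp18 at 50.4 and 5.55, Irf7 at 42.1 and 9.36 and Bst2 at 327 and 119.8. The Ifit genes were thus over 10-fold higher in AT1-like cells without any added cytokine. Stromal cells had 95.2 for Ifit3, and collagen transcripts in control AT1-like cells were at 2.07 to 2.46% of their stromal level, and no member was at or below that share. Stromal markers summed to 3673 in control AT1-like and 459 in AT2-like cells, and the 8 macrophage markers to 25.3 (2 at 0) and 4.55 (1 at 0), and their part in the difference was not tested. The order held in the IL-1β library, where 25 of 38 members were higher in AT1-like than in AT2-like cells and 0 lower (against 11.9% and 6.28% of all genes). There Ifit1 was at 65.9 and 13.1, Isg15 at 191 and 48.2 and Gbp2 at 47.7 and 3.54.

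Stromal cells were compared with AT2-like cells in the same way. In the control library 21 of 38 members were higher in stromal than in AT2-like cells and 0 lower (against 26.6% and 14.0% of all genes). In the IL-1β library 6 were higher and 13 lower (against 17.3% and 20.6%). The 6 were the 3 IFITM genes, Gbp2, Gbp3 and Iigp1.

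**Figure D3:**
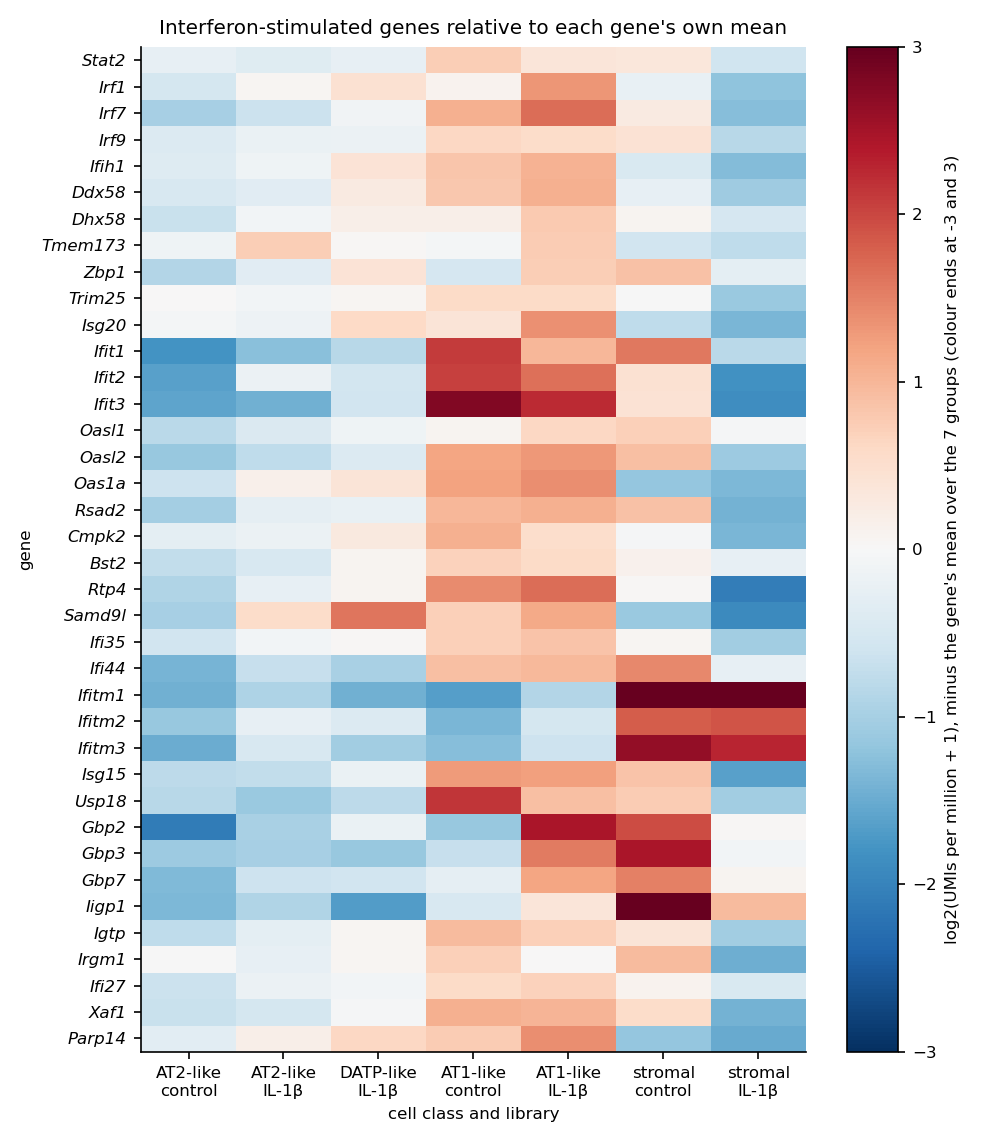
Level of each gene (y axis) in each class and library (x axis), as log2(CPM + 1) minus the gene's own mean over the 7 groups, with colours ending at -3 and 3. AT1-like cells of both libraries and control stromal cells are red for Ifit1, Ifit3 and Isg15, whose levels were 141, 486 and 198 in control AT1-like cells.

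The DATP-like cells were compared with AT2-like cells from the same IL-1β culture. Of 37 members compared, 1 was higher (Samd9l, at 123 against 59.1) and 0 were lower, against 5.01% and 2.19% of all genes. Ifit3 was at 46.8, Isg15 at 70.0, Bst2 at 213, Irf1 at 35.1 and Zbp1 at 15.9, each between the AT2-like and AT1-like levels of the same library. Other members lay outside the range of these 2 levels. Ifitm3 was at 224, under the 328 of AT2-like and the 302 of AT1-like cells. Tmem173 (17.1) and Iigp1 (5.19) were also under both levels, and Samd9l was above both. Since no control cell was DATP-like, IL-1β was not compared with control in this class.

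**Figure D4:**
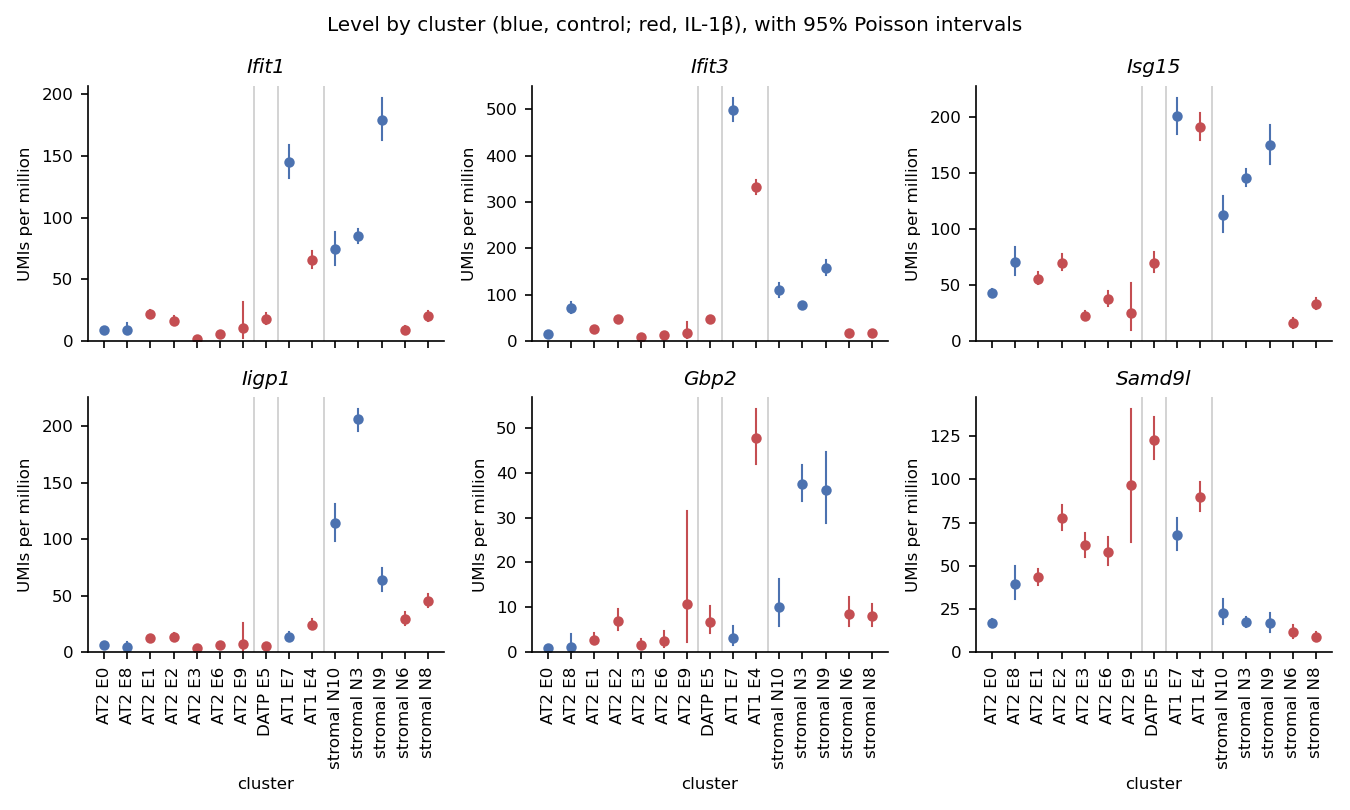
Level (y axis, CPM, with exact Poisson 95% intervals) of 6 genes in each cluster (x axis), for control (blue) and IL-1β (red) cells. Clusters with under 20 cells of a library are not drawn for it. Grey lines part AT2-like, DATP-like, AT1-like and stromal clusters. Ifit1, Ifit3 and Isg15 are highest in AT1-like and control stromal clusters, Gbp2 is at 47.7 in the IL-1β AT1-like cluster, and Samd9l is at 123 in the DATP-like cluster.

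AT2-like clusters differed within each library. Among the 5 IL-1β clusters, Ifit3 ranged from 8.33 to 48.6 and Isg15 from 22.4 to 70.0, highest in the same cluster of 508 cells, and in control Ifit3 was at 15.3 in the cluster of 871 cells and 71.1 in the cluster of 127 cells with Lgals3 and S100a6 among its leading genes. That small control cluster also had 39.4 for Samd9l, against 16.8. For 10 members every IL-1β cluster was above every control cluster (27.0%, against 10.9% of all genes): Ifih1, Dhx58, Tmem173, Samd9l, Ifi35, Ifitm2, Ifitm3, Gbp2, Igtp and Parp14. Neither Isg15 nor any Ifit gene was among them. These clusters are cells of 2 libraries and not replicates.

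Cells of 1 class varied widely in their summed level. Over the 38 genes the median cell was at 903 CPM in control and 1445 in IL-1β AT2-like cells, at 2347 and 2590 in AT1-like cells, at 5211 and 2750 in stromal cells and at 1598 in DATP-like cells. The 10th and 90th percentiles were 494 and 1742 in control AT2-like and 2248 and 10081 in control stromal cells. The IFITM genes made up much of the stromal sum, and without them the stromal medians were 1132 in control and 487 in IL-1β cells, or 1111 and 444 with every cell thinned to 4500 UMIs. The sum of Ifit1, Ifit2, Ifit3 and Isg15 was uneven: the top 10% of cells held 64.3% of these UMIs in control stromal, 40.7% in control AT1-like and 72.6% in IL-1β AT2-like cells. With every cell thinned to 4500 UMIs, 24 of 782 control stromal cells (3.07%, exact binomial interval 1.98 to 4.53%) held at least 10 UMIs of these 4 genes, against 4 of 475 IL-1β stromal cells (0.842%, 0.230 to 2.14%). In AT1-like cells it was 22 of 228 (9.65%, 6.15 to 14.2%) and 18 of 374 (4.81%, 2.88 to 7.50%), and in AT2-like cells 3 of 1016 (0.295%, 0.0609 to 0.860%) and 9 of 1886 (0.477%, 0.218 to 0.904%). In each of these 3 classes the separate intervals of control and IL-1β cells overlapped, which is not a comparison of the 2 libraries. Cells are not replicates of a condition, and these differences were not tested.

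**Figure D5:**
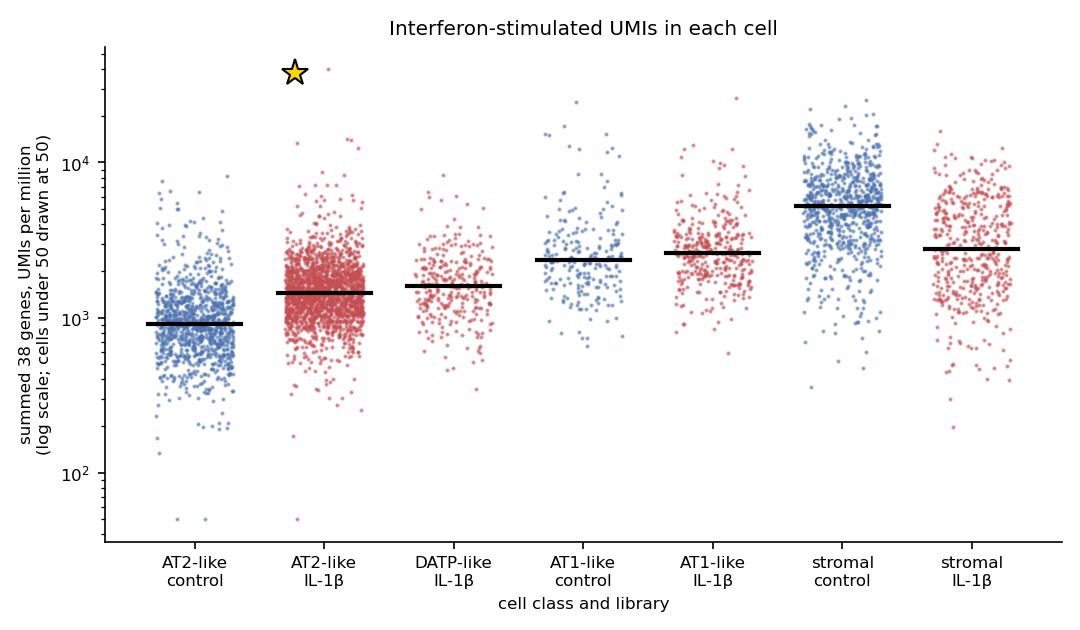
Summed level of the 38 genes in each cell in CPM (points, y axis, log scale; cells under 50 are drawn at 50) by class and library (x axis), with the median as a black bar and the cell holding Ifnb1 UMIs as a star. The medians are 903 and 1445 in AT2-like and 5211 and 2750 in stromal cells, and IL-1β AT2-like cells at 37993 and 39810 lie apart from the rest.

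Some pairs of effectors rose together from cell to cell, and other pairs did so only weakly. Across thinned control stromal cells (n = 782), the correlation of log counts was 0.50 between Ifit3 and Isg15, 0.49 between Ifit1 and Ifit3, 0.27 between Ifit3 and Iigp1 and 0.17 between Ifit3 and Gbp2, and it was 0.04 between Ifit3 and the cytoskeletal gene Actb. Between Iigp1 and Gbp2 it was 0.13 in these cells. In control AT2-like cells (n = 1016) it was 0.29 between Ifit3 and Isg15 and 0.27 between Ifit1 and Ifit3. There it was 0.11 between Ifit3 and Iigp1 and 0.03 between Ifit3 and Gbp2. These thinned AT2-like cells held only 26 Iigp1 and 5 Gbp2 UMIs, against 103 for Ifit3 and 214 for Isg15. With so few UMIs the last 2 values cannot show whether the genes go together. In control AT1-like cells (n = 228) it was 0.71 between Ifit1 and Isg15, the highest value of the pairs computed. Cells of 1 library share its depth and composition, so these are descriptions.

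The upstream parts of the pathway were read from a list of other interferon genes. Of 21 interferon genes in the files, 17 had no UMI in any kept cell and none reached 20. Apart from Ifnb1, Ifnab had 7 UMIs in control and 12 in IL-1β cells, Ifnz 6 and 0 and Ifne 2 and 3, never more than 1 per cell. Interferon transcripts were therefore near the limit of detection in both libraries, at a depth where 0 counts allow up to 0.201 CPM in control and 0.133 in IL-1β AT2-like cells.

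Of 6 receptor genes, 2 were called higher in AT2-like cells (8.30% of all genes) and 1 in AT1-like cells (5.56%). In stromal cells 0 of the 5 with enough UMIs were called higher (5.02%). Ifnar2, a chain of the type I receptor, was at 38.2 and 95.6 in AT2-like cells (2.50, 2.28 to 2.75), at 51.3 and 127 in AT1-like cells (2.48, 2.09 to 2.96) and at 101 and 107 in stromal cells (1.06). Ifngr2, a chain of the type II receptor, was at 47.9 and 108 in AT2-like cells (2.25, 2.07 to 2.45), with intervals of 1.33 to 1.70 in AT1-like and 1.08 to 1.31 in stromal cells. Its partner Ifngr1 had ratios of 1.66, 1.44 and 0.583 in AT2-like, AT1-like and stromal cells, and so was lower in stroma, without passing 2-fold. Ifnar1 had ratios of 1.19, 1.49 and 0.904, and Il10rb, shared by the type III receptor, 1.51, 0.980 and 1.03. Ifnlr1, the type III chain, had ratios of 1.06 and 0.840 in AT2-like and AT1-like cells and only 14 and 3 UMIs in stromal cells.

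The kinases did not pass 2-fold in any class. Jak1 had ratios of 1.13, 1.16 and 1.35 in AT2-like, AT1-like and stromal cells, Jak2 1.37 and 1.69 in AT1-like and stromal cells with an interval of 0.892 to 1.10 in AT2-like cells, and Tyk2 1.22, 0.853 and 0.987. Jak1 and Jak2 thus had intervals above 1 in the stromal cells whose interferon-stimulated genes were lower.

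Of 13 regulators, 12 were compared in AT2-like cells and 2 were called higher (8.30% of all genes). In AT1-like cells 2 of 9 were higher (5.56%), and in stromal cells 4 of 13 were lower (12.5%). Ikbke, an inducible kinase upstream of interferon production, was at 1.34 and 6.37 in AT2-like cells (4.76, 2.97 to 8.03) and had a ratio of 4.25 in AT1-like cells. Irf5 had 0 control UMIs and 24 IL-1β UMIs in AT1-like cells, where the interval of the ratio had a lower limit of 3.97. It had a ratio of 2.65 in AT2-like cells and 0.212 in stromal cells. Socs1, a feedback inhibitor of the kinases, was at 12.8 and 4.86 in stromal cells (0.381), and Irf8 had a ratio of 0.328 there. Tlr3, a sensor of double-stranded RNA, was lower there as well (0.467).

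Other interferon-stimulated genes, 46 in the list, were counted in the same classes. In stromal cells 21 of 34 with enough UMIs were lower (12.5% of all genes) and 0 higher. In AT2-like cells 8 of 35 were higher (8.30% of all genes) and 0 lower, and in AT1-like cells 10 of 35 were higher (5.56% of all genes) and 1 lower (4.45%). The 8 include Ifit1bl1, with 23 of its 25 IL-1β UMIs of AT2-like cells in the cell with Ifnb1 UMIs. The count of 8 was not repeated without that cell. In stromal cells Ifit3b had a ratio of 0.117 (0.0776 to 0.169), the GTPase Ifi47 0.139 and Cxcl10 0.198, the last with 227 and 177 of its 537 control UMIs in 2 cells. Slfn2, a Schlafen family member, was at 1.27 and 22.0 in AT2-like cells (17.3, 11.0 to 29.0) and at 1.53 and 23.8 in AT1-like cells (15.6, 6.49 to 48.9). Gbp4, a further guanylate-binding protein, had 0 and 48 UMIs in AT2-like cells, where the interval of the ratio had a lower limit of 8.28. Cxcl10 had a ratio of 7.81 in AT2-like cells, most of it from the cell with Ifnb1 UMIs. In AT1-like cells Gbp5 had 2 and 34 UMIs (11.2, 2.88 to 96.4) and Ly6e, a surface protein that blocks coronavirus entry, was at 732 and 2279 (3.11, 2.98 to 3.25).

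Members with and without an ISRE match were set side by side. In stromal cells 10 of 15 members with a match and 11 of 14 without one were lower (12.5% of all genes), with median ratios of 0.330 and 0.408. In AT2-like cells the median ratios were 1.33 and 1.35, and in AT1-like cells 1.10 and 1.09.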

How the data were processed

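The deposited files hold raw UMI counts for each gene and barcode. Per the authors, reads were aligned to GRCm38 by Cell Ranger. The submitters' processing notes also list Scanpy 1.3.6 and the build mm9, with no role. The cell filter required over 2000 UMIs and a number of genes between 500 and 7000. Scrublet marked only 3 cells (0.0583%), so it was taken to have failed as a doublet filter. The 3 marked cells were left out before clustering, and no other doublets were removed. Counts scaled to 10000 per cell were clustered with scanpy 1.11.5 (50 principal components, 15 neighbors, Leiden resolution 1.0), leaving the interferon genes out of the clustering genes. Clusters were named by marker levels, by a rule set after clusters were seen. Raw counts were summed per class and library. With 1 library per condition, calls used a 2-fold threshold and an exact conditional binomial 95% interval apart from 1, on the whole gene table with at least 20 UMIs. The labels do not say how many cultures or animals each library holds.

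Every member with 20 UMIs is given. Of the other pathway genes, every receptor and kinase is named, and up to 3 per set and comparison whose interval limit lay farthest from 1. Tlr3 and Ifit1bl1 were named after their values were seen. The members and lists were chosen with earlier results of these data known. Marker lists for other cells were read in each class. Lymphocyte markers summed to 0.917 to 2.64 CPM, endothelial to 1.22 to 25.4 and plasmacytoid dendritic to 5.82 to 86.2, with Siglech at 0 in every class. Ciliated markers summed to 102 to 533, airway to 19.1 to 379 and cycling to 40.0 to 104. The airway sums were 241 in control and 31.8 in IL-1β AT2-like cells, and 379 and 21.8 in AT1-like cells. Alternatives are given in the closing section. The ratio step was tested on simulated data. Some interferon pathway genes are not reported here.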

Additional observations from a re-analysis of the deposited data

Results flagged for a closer look

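For 7 members the IL-1β ratio passed 2-fold in opposite directions in epithelial and stromal cells, in 9 pairs of classes. The share of all genes that did so was not counted, so the count of 7 has no background. Each value compares 1 library with 1 library, and the difference between classes was not tested. In AT1-like against stromal cells the ratios were 15.6 and 0.243 for Gbp2, 6.27 and 0.143 for Gbp3, 3.20 and 0.332 for Gbp7, 2.54 and 0.417 for Zbp1 and 2.38 and 0.475 for Irf1. In AT2-like against stromal cells they were 4.19 and 0.113 for Ifit2, 3.31 and 0.243 for Gbp2, 2.05 and 0.332 for Gbp7 and 2.04 and 0.270 for Ifi44. Without the single IL-1β cell holding Ifnb1 UMIs the AT2-like ratios were 1.88 for Ifit2, 1.89 for Gbp7 and 1.96 for Ifi44, under 2-fold, and 2.94 for Gbp2.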

How the results depend on the processing

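The stromal counts kept to 25 members lower and 0 higher or within 1.5 times of it under all 17 alternatives. The lower members ranged from 19 relative to the median of all genes (51.4%, against 7.43% of all genes) to 30 past 1.5-fold (81.1%, against 26.5%). In AT2-like cells the 7 higher members became 4 with totals without surfactant, lysozyme, mitochondrial and ribosomal protein genes, 4 relative to the median of all genes, 3 with a minimum of 100 UMIs, 16 past 1.5-fold, 3 with a marker gate, 4 without the highest 1% of cells (Ifit2 then turned, at a log2 ratio of -0.04) and 3 without the cell with Ifnb1 UMIs. In that order these are 10.8, 10.8, 9.38, 43.2, 8.11, 10.8 and 8.11% of the members, against 7.31, 7.40, 6.25, 15.1, 7.98, 8.29 and 8.26% of all genes. The marker gate and the omission of that cell thus left the share past 2-fold at the background. Under these 2 settings the median log2 ratios were 0.36 and 0.38, against 0.08 and 0.09 over all genes. Omitting the highest 1% or the Ifnb1 cell, and the omission of cells with macrophage markers were chosen after seeing the data. In AT1-like cells the 5 higher members became 3 with 100 UMIs (10.0%, against 4.03%) and 12 past 1.5-fold (32.4%, against 9.98%). The 2 lower members became 0 at resolution 2.0, 1 with the libraries clustered separately and 1 with another random seed. In that order these are 0, 2.70 and 2.70% of the members, against 3.98, 4.32 and 4.54% of all genes. At resolution 0.5 only 2 IL-1β cells were AT1-like and none was compared. Thinning moved the median IL-1β AT2-like cell from 1445 to 1556, and without the IFITM genes the medians from 487 to 444 in IL-1β stromal, 610.2 to 667 in control AT2-like and 818 to 889 in IL-1β AT2-like cells; the other medians over all 38 genes or without the IFITM genes stayed within their intervals. The causes were not tested.

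DATP-like control cells appeared under 5 settings. With the libraries clustered separately (109 control and 158 IL-1β cells) 13 of 30 members were higher and 0 lower, against 9.39% and 3.58% of all genes, and 0 were lower under each of the 3 other settings with at least 20 control cells. There 9 of 24 were higher at resolution 2.0 (7.15% of all genes higher, 5.73% lower), 10 of 30 with another seed (5.92% and 7.96%) and 10 of 37 with the marker gate (5.21% and 3.64%). No paired analysis was possible because each condition has 1 library, and for the same reason no replicate could be left out.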
